A study of Tetranychus urticae with 12 samples.

Results

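Cyanase (tetur28g02430) and beta-cyanoalanine synthase (tetur10g01570) of the two-spotted spider mite Tetranychus urticae were followed across 3 strains. They are 2 of the 19114 gene IDs in the deposited count table and were chosen by ID, as the mite's genes for cyanate and cyanide that are of bacterial origin. The files used here do not pair these IDs with names, so the names rest on general knowledge of the mite's genes. Both were read in every library and both passed the filter on low counts, which left 14394 genes. Whole-body RNA came from untreated mites kept on potted kidney bean away from insecticides. The groups were Trizina, a field strain from Greece that resists many compounds, and the susceptible strains London (S-1) and BC2018-14 (S-2). The labels list 4 libraries per strain. The table holds values for 4 Trizina, 4 BC2018-14 and 3 London libraries, and London library 5 was not analysed here. Sex and age of the mites are not given in the sources used here, and in whole bodies fewer cells of a type and less RNA per cell cannot be told apart.

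Cyanogenic plants release hydrogen cyanide when their tissue is damaged, and cyanide blocks the last complex of the mitochondrial respiratory chain. Beta-cyanoalanine synthase, an enzyme of the cysteine synthase family, joins cyanide to cysteine and gives beta-cyanoalanine and hydrogen sulphide. Cyanase, also called cyanate hydratase, breaks down cyanate with bicarbonate to ammonia and carbon dioxide. Animals as a rule lack both enzymes, and spider mites are among the arthropods whose genomes carry such genes after lateral transfer from bacteria. No cyanide, cyanate or enzyme activity was measured in these samples, and all libraries came from mites on the same host plant species.

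Total counts ran from 26090006 to 39875401 per library, with the deepest library in London. The TMM scaling factors, which correct for RNA composition, were 0.874 to 0.918 for London, 1.06 to 1.09 for BC2018-14 and 1 to 1.03 for Trizina. Scaling therefore touches every comparison that involves London. Using library size alone in place of these factors moved the median log2 fold change of all genes from 0.00 to 0.17 between Trizina and London, from 0.00 to 0.25 between BC2018-14 and London, and from 0.01 to -0.06 between Trizina and BC2018-14.

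Both genes were expressed in all strains, and the differences between strains were small. Trizina had about 1.56-fold as much cyanase transcript and 1.52-fold as much beta-cyanoalanine synthase transcript as BC2018-14, and both differences had an adjusted p below 0.05. Against London, neither gene passed the test in Trizina. BC2018-14 had less beta-cyanoalanine synthase transcript than London, while cyanase did not differ beyond its error between these susceptible strains. No difference reached 1 on the log2 scale, the size needed for a call together with an adjusted p below 0.05. In edgeR's quasi-likelihood test 0 of the 6 differences were called by both criteria, 3 had an adjusted p below 0.05 and 3 had an unadjusted p below 0.05. DESeq2 gave the same numbers, 0 and 3. Among all tested genes, 17.6% were called between Trizina and London, 15.1% between Trizina and BC2018-14 and 21.7% between BC2018-14 and London. An adjusted p below 0.05 alone was reached by 36.5%, 39.6% and 47.1% of genes in the same order, so 3 of 6 was near the share over all genes.

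Cyanase was covered by few reads. In London its counts were 156, 84 and 224 reads in libraries 2, 3 and 4, or 5.33, 2.84 and 5.62 CPM (reads scaled to a common total, here the column total of each library). In BC2018-14 the counts were 141, 135, 102 and 132 in libraries a, b, c and e, or 5.40, 5.09, 3.84 and 4.92 CPM. In Trizina they were 222, 190, 165 and 231 in libraries 4, 5, 6 and 7, or 7.21, 6.59, 6.03 and 8.73 CPM. On this scale each of the 4 Trizina libraries lay above all libraries of both susceptible strains, and London library 3 was the lowest of all, 3.07-fold below Trizina library 7. Libraries without overlap and higher in Trizina were found for 32.4% of tested genes against London and for 18.6% against BC2018-14. The share of genes above both susceptible strains at once was not counted. With TMM-scaled sizes the Trizina and London libraries overlapped, with 3 of 4 Trizina libraries above London, and those of Trizina and BC2018-14 still did not, as for 22.6% of tested genes.

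The mean cyanase level was 4.60 ± 1.53 CPM in London (SD, n = 3). In BC2018-14 it was 4.81 ± 0.678 CPM and in Trizina 7.14 ± 1.17 CPM (SD, n = 4 each). Trizina stood first in this order, and the susceptible strains did not differ beyond their spread. Counting error alone would give an SD of 8.13% of the mean in London, 8.86% in BC2018-14 and 7.05% in Trizina. The observed SDs were 33.2%, 14.1% and 16.3% of the mean. They were above the counting values in each strain, but this excess was not tested.

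**Figure D1:**
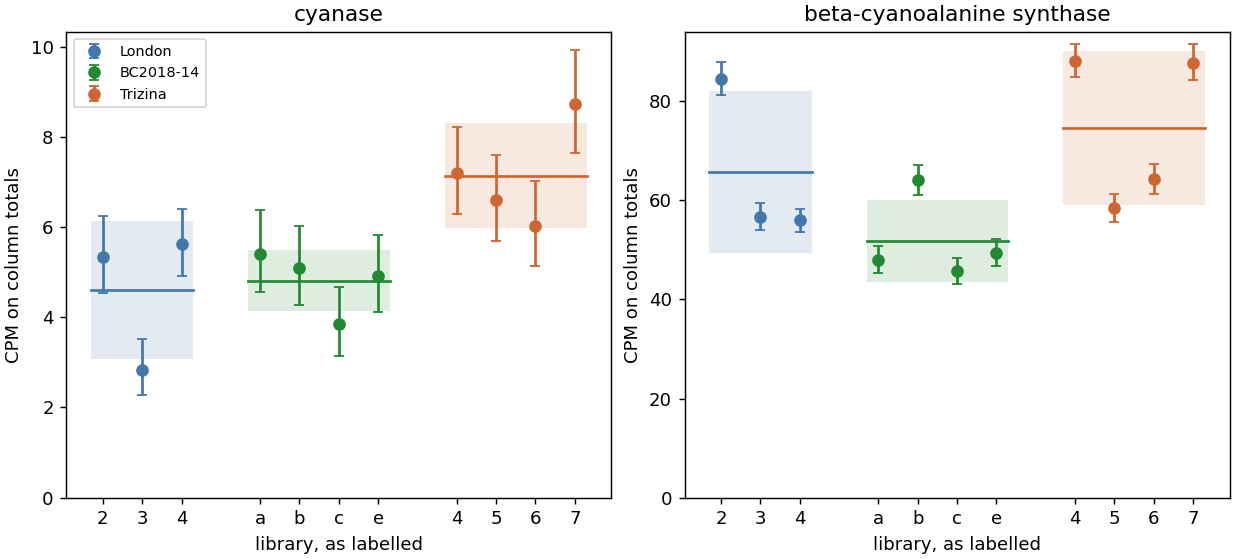
Level of cyanase (left) and beta-cyanoalanine synthase (right) in each library, in CPM on column totals, by strain. Points carry 95% intervals for counting error, lines are strain means and shaded bands ± 1 SD. On this scale the 4 Trizina libraries lie above all others for cyanase, between 6.03 and 8.73 CPM, and the strains overlap for beta-cyanoalanine synthase. Of all tested genes, 32.4% had Trizina libraries above all London libraries and 18.6% above all BC2018-14 libraries. With TMM-scaled sizes, cyanase overlaps between Trizina and London, and beta-cyanoalanine synthase does not overlap between BC2018-14 and London.

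Beta-cyanoalanine synthase was covered by many more reads. In London it had 2475, 1674 and 2231 reads in libraries 2, 3 and 4, or 84.6, 56.6 and 55.95 CPM. In BC2018-14 it had 1253, 1701, 1213 and 1328 reads in libraries a, b, c and e, or 48.0, 64.1, 45.7 and 49.5 CPM. In Trizina it had 2714, 1684, 1760 and 2323 reads in libraries 4, 5, 6 and 7, or 88.1, 58.4, 64.3 and 87.8 CPM. The libraries of every pair of strains overlapped on this scale. The Trizina libraries formed a pair of high values (4 and 7) and a pair of lower ones (5 and 6), London library 2 lay well above the other London libraries, and BC2018-14 library b lay above the other BC2018-14 libraries. With TMM-scaled sizes all 4 BC2018-14 libraries were below the London libraries, a pattern shown by 23.5% of tested genes.

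The mean level of beta-cyanoalanine synthase was 65.7 ± 16.3 CPM in London (SD, n = 3). In BC2018-14 it was 51.8 ± 8.33 CPM and in Trizina 74.7 ± 15.6 CPM (SD, n = 4 each). Trizina and London were neighbours at the top of this order and did not differ beyond their spread. Counting error would give SDs of only 2.19%, 2.70% and 2.18% of the mean in London, BC2018-14 and Trizina, against observed SDs of 24.9%, 16.1% and 20.8%. The observed SDs were above the counting values in each strain, but this excess was not tested. Within strains, the SD of log2 CPM was 0.335 for cyanase and 0.294 for beta-cyanoalanine synthase, above the median of 0.214 over all tested genes. Strain accounted for 49.7% of the variance of log2 CPM for cyanase and 55.8% for beta-cyanoalanine synthase, where the median gene had 65.5%.

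In read numbers, which are not corrected for transcript length, cyanase exceeded 26.7% to 38.5% of tested genes depending on the library, and beta-cyanoalanine synthase exceeded 65.2% to 82.3%. Transcript lengths were not used here, so these ranks do not order the genes by transcript number. They show that cyanase sat among the sparsely read genes in all 11 libraries and that its strain differences rest on between 84 and 231 reads a library.

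Between Trizina and BC2018-14, the comparison of the resistant strain with the susceptible strain S-2, both genes were higher in Trizina. For cyanase the log2 fold change was 0.64 ± 0.217 (SE, 4 against 4 libraries), with a 95% interval of 0.17 to 1.12 and an adjusted p of 0.0344. For beta-cyanoalanine synthase it was 0.60 ± 0.187 (SE), with an interval of 0.19 to 1.01 and an adjusted p of 0.0254 (both edgeR quasi-likelihood, Benjamini-Hochberg over 14394 genes). An adjusted p below 0.05 was reached by 39.6% of all tested genes in this comparison, and 28.0% and 29.9% of genes had a larger absolute change than cyanase and beta-cyanoalanine synthase. Passing the test was thus frequent between these strains, while both changes were above the median absolute log2 change of 0.318 over all tested genes.

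Both calls on adjusted p were close to the threshold. Leaving out 1 library at a time kept the log2 fold change of cyanase between 0.54 and 0.72. Its adjusted p rose above 0.05 in 6 of 8 cases, from 0.0507 to 0.0957: without BC2018-14 libraries b, c or e (log2 fold changes of 0.68, 0.55 and 0.65) and without Trizina libraries 4, 5 or 7 (0.63, 0.68 and 0.54). For beta-cyanoalanine synthase the log2 fold change stayed between 0.51 and 0.73. Its adjusted p rose above 0.05 in 5 of 8 cases, to at most 0.0711: without BC2018-14 libraries a, c or e (0.56, 0.55 and 0.57) and without Trizina libraries 4 or 7 (0.51 and 0.52). With library size alone the change of cyanase was 0.57 with an adjusted p of 0.0512, and that of beta-cyanoalanine synthase 0.53 with an adjusted p of 0.0362. Direction and size thus held in every one of these fits, and the side of the threshold did not.

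Between Trizina and London, the comparison with the susceptible strain S-1, neither gene passed the test. Cyanase had a log2 fold change of 0.45 ± 0.235 (SE, 4 against 3 libraries), with a 95% interval of -0.06 to 0.97 and an adjusted p of 0.158. Beta-cyanoalanine synthase had 0.01 ± 0.2 (SE), with an interval of -0.44 to 0.45 and an adjusted p of 0.987. An adjusted p below 0.05 was reached by 36.5% of genes here. The interval for beta-cyanoalanine synthase leaves room for a difference of up to about 1.36-fold either way, so equal levels were not shown.

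The cyanase result depended on scaling and on London library 3, in which cyanase was lowest. With library size alone its log2 fold change from London was 0.63, with an adjusted p of 0.0462. Without London library 3 it was 0.20 (adjusted p = 0.453), and without library 2 or 4 it was 0.58 or 0.62 (adjusted p = 0.0994 and 0.0949, edgeR quasi-likelihood). Over all 7 libraries left out in turn it stayed above 0.

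Between BC2018-14 and London, which measures the strain difference without Trizina, beta-cyanoalanine synthase was lower in BC2018-14, by -0.60 ± 0.2 on the log2 scale (SE, 4 against 3 libraries). The 95% interval was -1.04 to -0.16 and the adjusted p 0.0299, and London was 1.51-fold higher. An adjusted p below 0.05 was reached by 47.1% of genes in this comparison. Cyanase had a log2 fold change of -0.19 ± 0.235 (SE), an interval of -0.70 to 0.32 and an adjusted p of 0.535 (edgeR quasi-likelihood, Benjamini-Hochberg). Its direction turned with library size alone, to 0.06.

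The lower beta-cyanoalanine synthase in BC2018-14 rested on London library 2, its highest London library, and on the scaling. Without that library the log2 fold change was -0.35 with an adjusted p of 0.14. Library size alone gave -0.34 with an adjusted p of 0.151. The adjusted p also passed above 0.05 without BC2018-14 libraries a, c or e, at 0.0703, 0.074 and 0.0685, while the change stayed between -0.57 and -0.54 (edgeR quasi-likelihood).

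Each strain enters 2 of the 3 comparisons, so these share libraries. BC2018-14 entered both differences of beta-cyanoalanine synthase that passed, as the lower strain each time.

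**Figure D2:**
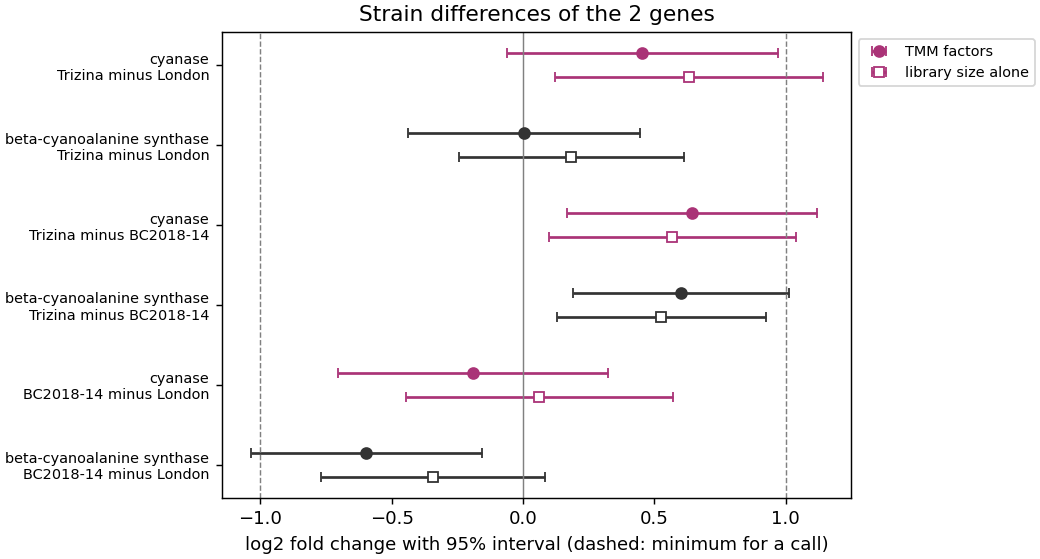
Log2 fold changes of both genes in the 3 comparisons, with 95% intervals; filled circles use TMM factors and open squares library size alone. The estimates lie between -0.60 and 0.64, inside the dashed lines at -1 and 1 that mark the minimum for a call.

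The authors' deposited table for London against Trizina lists 1458 genes, and the authors' deposited table for BC2018-14 lists 967. By their values, the smallest absolute log2 fold changes in the authors' deposited tables were 1.5 in both, and their largest false discovery rates were 0.000982 and 0.000995. The authors' deposited tables list 0 of the 2 genes. The changes measured here, of at most 0.64, are below the smallest change in the authors' deposited tables.

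Since both enzymes act on small cyano compounds, it was examined whether their transcripts shifted together. The ratio of reads of both genes within a library is free of library scaling. London had 15.9, 19.9 and 9.96 beta-cyanoalanine synthase reads per cyanase read in libraries 2, 3 and 4. BC2018-14 had 8.89, 12.6, 11.9 and 10.1 in libraries a, b, c and e, and Trizina had 12.2, 8.86, 10.7 and 10.1 in libraries 4, 5, 6 and 7. BC2018-14 and Trizina covered nearly the same range, and London library 4 lay inside it while London libraries 2 and 3 lay above.

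The mean log2 ratio of cyanase to beta-cyanoalanine synthase reads, with 0.5 added to each count, was -3.87 ± 0.508 in London (SD, n = 3), -3.42 ± 0.229 in BC2018-14 (SD, n = 4) and -3.37 ± 0.193 in Trizina (SD, n = 4). The difference of Trizina from BC2018-14 was 0.05 (two-sided exact permutation test, p = 0.771, adjusted p = 0.771 over 3 comparisons). Trizina and BC2018-14 differed from London by 0.50 and 0.45 (exact permutation p = 0.229 and adjusted p = 0.343 for each). The smallest p that the test can give is 0.0571 for 4 against 3 libraries and 0.0286 for 4 against 4, so no difference could pass 0.05 after adjustment. A shift of the genes against each other was not shown, and a shift of any size could not have been called by this test.

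**Figure D3:**
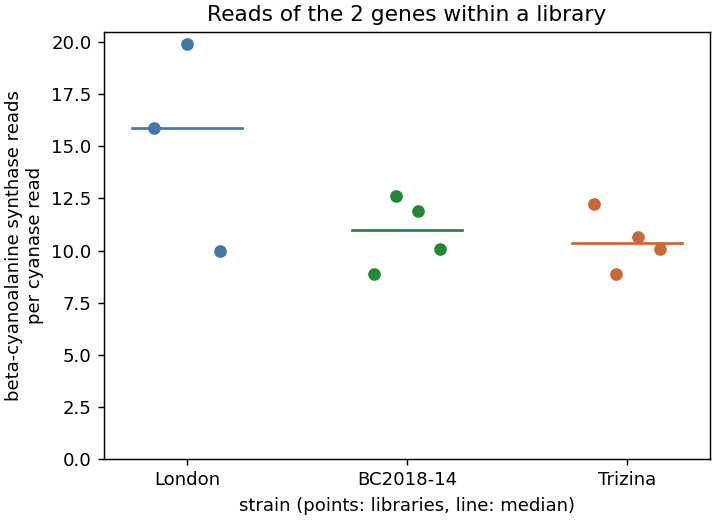
Reads of beta-cyanoalanine synthase per read of cyanase in each library, by strain, with the median as a line. BC2018-14 and Trizina libraries lie between 8.86 and 12.6, and London libraries between 9.96 and 19.9.

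The likeness of expression profiles was measured as the root mean square difference of mean-centred log2 CPM over the 11 libraries, over 8516 tested genes averaging 10 CPM or more. Between cyanase and beta-cyanoalanine synthase it was 0.338. Of the genes compared, 5.57% were closer to cyanase than beta-cyanoalanine synthase was, and the median gene lay at 0.478 from cyanase. Of the 8515 genes compared with beta-cyanoalanine synthase, 12.3% were closer to it than cyanase was, and their median was 0.466. Cyanase itself averaged 5.6 CPM, below the 10 CPM asked of these genes, so it was ranked against genes read more deeply. The points of each profile share their libraries, their depth and the scaling, so these values are descriptions.

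The gene with the profile most like cyanase was tetur07g03120, at 0.16. Its mean was 105.8 ± 23.9 CPM over 3 London libraries, 110.6 ± 13.7 CPM over 4 BC2018-14 libraries and 163.7 ± 23.0 CPM over 4 Trizina libraries (± SD). The next was tetur04g04730, at 0.189, with 27.3 ± 8.92, 32.2 ± 1.33 and 37.3 ± 2.34 CPM in the same order. Both had their highest mean in Trizina, a trait that follows from their choice by likeness to cyanase. Their levels in the susceptible strains are not ranked here, since these levels use column totals and the likeness used TMM-scaled values.

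The genes most like beta-cyanoalanine synthase were tetur20g00610 and tetur07g07340, each at 0.115. The first averaged 38.8 ± 9.75 CPM over 3 London libraries, 32.96 ± 4.06 CPM over 4 BC2018-14 libraries and 44.4 ± 7.15 CPM over 4 Trizina libraries (± SD). The second had 233.2 ± 85.5, 176.3 ± 32.6 and 256.6 ± 70.3 CPM in the same order. Both had their lowest mean in BC2018-14 and a wide spread within strains, as beta-cyanoalanine synthase had. These shared traits follow from choosing the genes by likeness to it. The files do not pair these IDs with names.

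Gene IDs of this mite are numbered in order along a scaffold, and cyanase carries scaffold number 28 and beta-cyanoalanine synthase scaffold number 10. The 5 listed IDs on each side of each gene were compared. Around cyanase 9 of 10 were tested, and the remaining ID had 0 counts in every library. The nearest IDs were read far more deeply than cyanase. Mean CPM of tetur28g02420 was 244.5 ± 59.1 in London (SD, n = 3), 295.2 ± 36.4 in BC2018-14 (SD, n = 4) and 287.9 ± 22.4 in Trizina (SD, n = 4). For tetur28g02440 the values were 75.0 ± 7.25, 100.1 ± 4.03 and 84.5 ± 2.59 CPM in the same order.

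The neighbours of cyanase had no common direction. From BC2018-14 to Trizina, tetur28g02420 changed by 0.04 ± 0.147 on the log2 scale (SE, adjusted p = 0.848) and tetur28g02440 by -0.16 ± 0.0601 (SE, adjusted p = 0.0472), where cyanase changed by 0.64. Of the 9 tested neighbours, 2 were higher and 1 lower in Trizina than in BC2018-14 by adjusted p (edgeR quasi-likelihood, Benjamini-Hochberg), with a median change of 0.17; over all genes 39.6% passed. Against London, 2 were higher and 0 lower in Trizina, with a median of 0.06, where 36.5% of all genes passed. Of these, 1, tetur28g02380, was called with the minimum fold change, at 1.71, as were 17.6% of all genes. That ID was picked out after its values had been seen. Between BC2018-14 and London, 2 were higher and 3 lower in BC2018-14, where 47.1% of all genes passed.

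Beta-cyanoalanine synthase had a sparsely read adjacent ID on its lower side and a more deeply read one on its upper side. Mean CPM of tetur10g01560 was 1.06 ± 0.444 in London (SD, n = 3), 1.76 ± 0.261 in BC2018-14 (SD, n = 4) and 1.62 ± 0.396 in Trizina (SD, n = 4). For tetur10g01580 it was 54.8 ± 6.34, 69.2 ± 5.36 and 67.0 ± 1.25 CPM in the same order. Neither adjacent ID passed the test between BC2018-14 and London, with log2 fold changes of 0.48 (adjusted p = 0.211) and 0.09 (adjusted p = 0.465, edgeR quasi-likelihood).

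All 10 neighbours of beta-cyanoalanine synthase were tested. From BC2018-14 to Trizina, 0 were higher and 3 lower by adjusted p (edgeR quasi-likelihood, Benjamini-Hochberg), with a median log2 change of -0.06, where 39.6% of all genes passed. The change was -0.04 ± 0.273 (SE, adjusted p = 0.916) for tetur10g01560 and 0.03 ± 0.0832 (SE, adjusted p = 0.794) for tetur10g01580, where beta-cyanoalanine synthase changed by 0.60. Between BC2018-14 and London, 4 neighbours were higher and 1 lower in BC2018-14, with a median of 0.32, in which beta-cyanoalanine synthase was lower by 0.60. Between Trizina and London 4 were higher and 1 lower in Trizina. Over all genes 47.1% and 36.5% passed in these comparisons, so the numbers of neighbours that passed were near the background. The widest changes lay at the IDs 4 and 5 places below beta-cyanoalanine synthase, from -3.52 to 1.78 over the 3 comparisons.

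**Figure D4:**
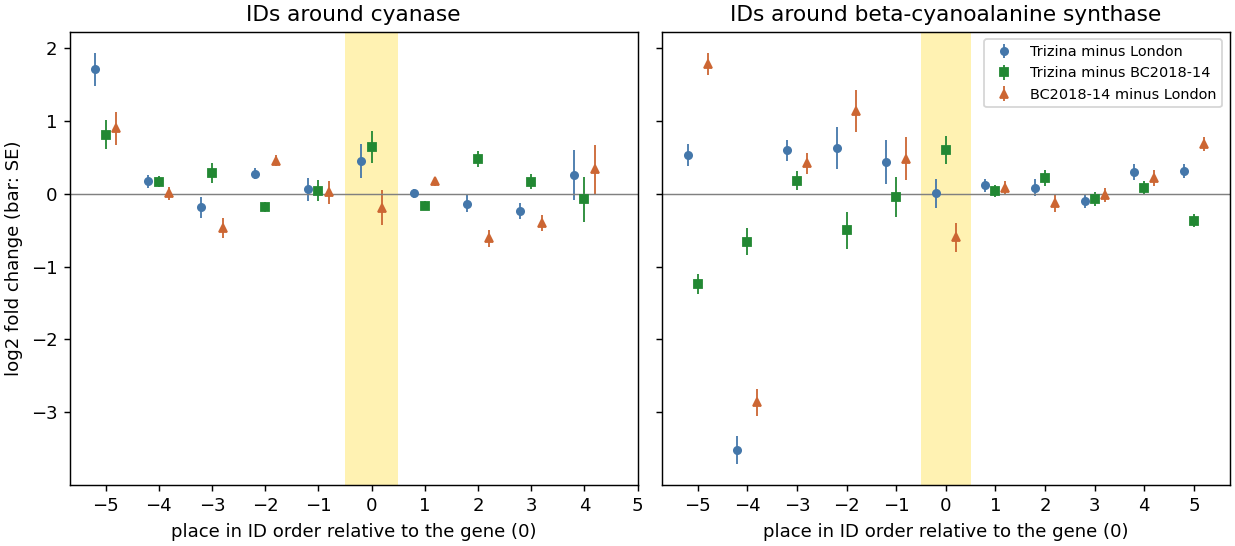
Log2 fold changes with SE of cyanase (left) and beta-cyanoalanine synthase (right), at place 0 in the shaded band, and of the 5 listed IDs on each side in ID order, in the 3 comparisons. The ID at place 5 above cyanase was not tested; the adjacent IDs lie between -0.16 and 0.48.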

How the data were processed

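The authors deposited raw read counts per gene and 2 tables of their own comparisons, which hold log2 fold changes with p-values and false discovery rates, per the file headers. HISAT2 2.1.0, SAMtools 1.10, featureCounts 1.6.0 and edgeR are named per the submitters' processing notes. The build, annotation and strand setting are not given in the sources used here, so reads shared with overlapping, antisense or near-identical genes are uncertain. The header of the count table names 12 libraries and its lines hold 11 values. Columns were assigned because their counts equalled the named columns of the authors' tables at all 1458 or 967 listed genes, and London library 5 matched none.

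The count test was edgeR 4.0.16 (R 4.3.3) with filterByExpr, TMM factors and a robust quasi-likelihood fit of the 11 libraries, with strain as its term. P-values were adjusted by Benjamini-Hochberg over 14394 genes. A call needed an adjusted p below 0.05 and a log2 change of 1 or more in size. CPM levels use column totals. Profiles and variances used log2 CPM on TMM-scaled sizes with a prior count of 2. Fits with other settings included DESeq2 1.42.0. The edgeR fit was also run on simulated counts and checked for Trizina against London alone, with planted changes larger than those of the 2 members. The ratio, likeness and neighbour steps were not simulated. Intervals on single counts are exact Poisson intervals at 95%. They cover counting error only, and reads carried no molecular identifiers. Nothing in the labels says that libraries came from separate cultures, and the p-values describe spread between libraries that may be technical.

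The members, lists and tests were chosen with earlier results of these data known. Named genes were the 2 members, the nearest listed ID on each side of each, and the 2 genes with the most alike profile per member. Of the 19114 IDs, 0 matched the 14930 RefSeq genes. A planned list of related genes of cyanide and sulphur amino acid metabolism, to be matched on descriptions, was therefore not applied, and no sequences are shown.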

Additional observations from a re-analysis of the deposited data

How the results depend on the processing

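No paired analysis was possible because the London and Trizina columns share only the number 4 and the BC2018-14 libraries carry letters. Library size alone ended 2 calls on adjusted p and made 1: cyanase gave 0.57 for Trizina against BC2018-14 and 0.63 against London, and beta-cyanoalanine synthase gave -0.34 for BC2018-14 against London. Cyanase turned from -0.19 to 0.063 in BC2018-14 against London. Beta-cyanoalanine synthase in Trizina against London turned from 0.01 to -0.0012 with DESeq2, and to -0.10, -0.11, -0.08 and -0.08 without London libraries 3 and 4 and Trizina libraries 4 and 7, none past the test. The causes were not tested. The other fits of the 6 changes (no filter, 5 CPM in 3 libraries, non-robust dispersion, only the 2 strains compared, and DESeq2 for the other 5) kept direction and side of the threshold.

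Leaving out 1 library gave, for cyanase, 0.54 to 0.72 in Trizina against BC2018-14, 0.20 to 0.62 against London and -0.45 to -0.03 for BC2018-14 against London. For beta-cyanoalanine synthase it gave 0.51 to 0.73, -0.11 to 0.25 and -0.72 to -0.35. The log2 read ratio ranged from -0.027 to 0.14, 0.28 to 0.77 and 0.23 to 0.72, and turned to -0.027 without BC2018-14 library b or Trizina library 5. Fewer libraries also lower the power of each fit.

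Of all genes, 2531 were called between Trizina and London, 2172 between Trizina and BC2018-14 and 3121 between BC2018-14 and London. The counts were 5254, 5699 and 6775 with adjusted p alone, 1268, 787 and 1539 at an adjusted p below 0.001 and a log2 change of at least 1.5, and 1201, 1132 and 1612 with 5 CPM in 3 libraries, which tests fewer genes (edgeR quasi-likelihood, Benjamini-Hochberg). The observed SDs between libraries were above those from counting error for both genes, and the excess was not tested. For beta-cyanoalanine synthase, counting error was at most 2.70% of the mean in a strain and the observed SD at least 16.1%.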
